A study of Mus musculus and Homo sapiens with 12 samples.

Results

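Intracisternal A particle (IAP) elements were followed in m5C-immunoprecipitated chromatin-associated RNA (caRNA) of mouse embryonic stem cells (mES cells). Members were taken from the mm10 table by name alone: an element of family ERVK whose subfamily name begins with IAP. This gave 19208 of 3158171 annotated repeat elements, in 25 subfamilies, and 11596 of them had counts in at least 1 library. Of the 19208 elements 6390 were internal parts, with names ending in -int or _I. The other 12818 are called long terminal repeats (LTRs) by name alone. Of these, 836 were over 1000 bp long and spanned 3307 of the 7659 kb of this group. RNA that stays with chromatin was fragmented, bound with an antibody against 5-methylcytosine (m5C) and sequenced (meRIP–seq), with 3 libraries from wild-type (WT) and 3 from Tet2-knockout (KO, Tet2-/-) mES cells. Both lines were gifts from another laboratory and had passed a chimera assay for pluripotency. They were grown without treatment in serum medium with LIF, CHIR99021 and PD0325901 and were passaged on gelatin to clear feeder cells. There was 1 line per genotype as far as the labels say. Nothing in the labels tells whether replicates were separate cultures, so that p-values measure only the spread between these libraries.

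IAPs are endogenous retroviruses of rodents that copy themselves through RNA. A complete copy carries an internal part with the gag and pol genes between a pair of LTRs, and the 5′ LTR holds the promoter. Young copies are held silent by DNA methylation and by KRAB zinc finger proteins with TRIM28 and SETDB1, and many copies in the mouse genome have lost part of the internal sequence. TET2 oxidises 5-methylcytosine in DNA and in RNA, and the comparison of Tet2-KO with WT cells asks which IAP RNAs differ in the m5C-bound fraction when it is missing. The internal part of the youngest copies is named IAPEz-int, and its LTRs are named IAPLTR1, IAPLTR1a and IAPLTR2 with their variants. Only the immunoprecipitated fraction was analysed here. A difference between genotypes thus cannot be split into RNA level and m5C enrichment, and fewer transcribing cells cannot be told apart from less RNA per cell.

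A sequence near the 5′ end of many IAPEz-int elements is shown first, because the antisense oligonucleotide of the study was aimed at it. The 36-base target window was read from the oligonucleotide table and searched on the element's own strand in the mm10 genome. It was found without a difference in 1454 of 3004 IAPEz-int elements and outside this subfamily only in 3 IAPA_MM-int elements. A form with both G12A and A22G was found in 609 elements and a form with A22G alone in 143 (positions from 1 at the 5′ end of the window, target base first). Capitals mark the bases that differ from the target. The examples lie in the elements of highest count that carry each form, with chromosomes 18 and 8 left out of the choice.
exact target, chr3:60494527-60494562, minus strand: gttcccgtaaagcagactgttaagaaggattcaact
A22G, chr10:96161863-96161898, minus strand: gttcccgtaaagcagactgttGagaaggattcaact
G12A and A22G, chrX:22882929-22882964, minus strand: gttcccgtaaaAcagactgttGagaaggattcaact

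Just upstream of the target window lies the site of the guide RNA that brought a dCas13 fusion to IAP RNA. It begins at base 58 of an undeleted element in which the target window begins at base 95. It is shown because its forms differ between the structural classes described below. The guide pairs with the first of the 23-base sites below, and capitals mark bases that differ from a perfect site (positions from 1 at the 5′ end of the site). The perfect site was present in 1353 of 3004 IAPEz-int elements. In the division by form used below, 1349 elements were assigned the perfect site and 724 the A7G form.
guide: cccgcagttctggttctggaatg
perfect site, chr13:43277955-43277977, plus strand: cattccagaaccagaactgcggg
A7G, chr6:8607398-8607420, plus strand: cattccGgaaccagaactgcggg
A7G and G23A, chr6:64161202-64161224, minus strand: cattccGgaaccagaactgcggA
G22A and G23A, chr3:60494655-60494677, minus strand: cattccagaaccagaactgcgAA
C5T and G23A, chr16:74778580-74778602, minus strand: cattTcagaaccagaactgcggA

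Another sequence marks a deletion that many IAPEz-int copies have in common. Against an undeleted element of 6400 bp (chr13:43277898-43284297, plus strand), 229 IAPEz-int elements with both ends complete lacked 1 stretch that began between bases 1258 and 1263 and ended at base 3157 or 3158, with a median of 1898 bases missing. They are called the common-deletion form here. The 30 bases below cross the junction in 1 such element on chromosome 15, with the bases that follow the gap in capitals. The same 30 bases were present in 183 of the 229 elements and in 0 of 772 undeleted ones. Both lines from chromosome 13 show the same places in the undeleted element, with capitals for the 15 bases that border the gap on its outer side.
junction, chr15:39174646-39174675, plus strand: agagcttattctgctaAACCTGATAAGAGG
undeleted, left border, chr13:43279143-43279172, plus strand: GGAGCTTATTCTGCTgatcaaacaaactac
undeleted, right border, chr13:43281041-43281070, plus strand: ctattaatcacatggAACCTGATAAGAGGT

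Counts over the DNA, LINE, LTR and SINE classes summed to 2199886, 3171701 and 3318565 in the WT libraries and to 1721262, 1532029 and 1999210 in the Tet2-KO libraries. The WT libraries were thus deeper, and 7343 to 8217 IAP elements had counts in each of them against 6758 to 7249 in a Tet2-KO library. Counts were spread widely: the 10 IAP elements of highest count held 2.89% to 5.50% of the IAP counts of a library. Counts were fractional (6.73% of non-zero IAP values were whole numbers), and reads from near-identical copies cannot be assigned to 1 copy with certainty, so sums over many elements are firmer than the value of a single element.

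IAP elements as a whole took the same share of repeat counts in both genotypes within the spread of the libraries. The share was 5.93%, 6.63% and 5.99% in WT and 6.19%, 6.13% and 6.47% in Tet2-KO libraries (6.19% ± 0.39 against 6.26% ± 0.181, SD, n = 3; exact permutation test over 20 assignments, two-sided, p = 0.7, where 0.1 is the smallest p possible). The groups overlapped. The log2 ratios of internal parts and LTRs had opposite signs, −0.11 and 0.27.

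No IAP subfamily passed the edgeR quasi-likelihood test after Benjamini–Hochberg adjustment. All 25 were tested among 547 repeat subfamilies, of which 11 (2.01%) passed. At an unadjusted p under 0.05 there were 5 IAP subfamilies, against 15.9% of all subfamilies, with 3 higher in Tet2 KO (8.78% of all subfamilies) and 2 lower (7.13%). The DESeq2 Wald test called 3, which were IAPEz-int lower and IAPEY5_LTR and IAPLTR3-int higher in Tet2 KO. The share of all subfamilies that DESeq2 called is not given here, so its count says nothing particular to IAP. Of the 25 subfamilies, 11 had a fitted log2 difference above 0 and 14 below, with a median of −0.10 against 0.12 over all subfamilies. In 4 of them every Tet2-KO library lay above every WT library and in 2 below, where the same held for 11.2% and 10.4% of all subfamilies. Named below are the 10 subfamilies with a mean of at least 1000 counts, 4 internal and 6 LTR.

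Levels of subfamilies are given in CPM, counts relative to the library total after scaling by the trimmed mean of M-values (TMM). IAPEz-int, which held 57.0% to 73.2% of all IAP counts, was at 44813, 43899 and 42114 CPM in WT and at 36077, 33030 and 34085 CPM in Tet2 KO. Every Tet2-KO library lay below every WT library. The fitted log2 difference, KO minus WT, was −0.34 ± 0.07 SE (edgeR adjusted p = 0.0634). Its sign rests on the scaling: it was −0.16 with library totals alone and 0.09 with TMM factors taken from single elements, which set Tet2-KO values 0.43 higher on the log2 scale than factors from subfamily sums did.

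IAPLTR1_Mm, the LTR of the most abundant IAPEz-int copies, differed in the other direction. It was at 5993, 7986 and 7473 CPM in WT and at 10152, 8900 and 9067 CPM in Tet2 KO, again without overlap between the groups. The log2 difference was 0.39 ± 0.14 SE (edgeR adjusted p = 0.234). It stayed above 0 under every scaling tried, from 0.34 with DESeq2 size factors to 0.82 with the factors of single elements.

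The closely related IAPLTR1a_Mm showed no such separation. Its values were 4387, 7997 and 7703 CPM in WT and 5948, 5744 and 6470 CPM in Tet2 KO (log2 difference −0.15 ± 0.23 SE, edgeR adjusted p = 0.786). The first WT library was below and the other two were above all Tet2-KO libraries. IAPLTR2_Mm was at 1322, 1648 and 2601 CPM in WT and at 1884, 2278 and 2513 CPM in Tet2 KO (log2 difference 0.26 ± 0.28 SE, edgeR adjusted p = 0.690). IAPLTR2a had 652, 1182 and 1723 CPM against 662, 956 and 940, and IAPLTR2a2_Mm had 854, 2249 and 1403 CPM against 750, 1327 and 660. In all 3 the groups overlapped, and the WT libraries differed more among themselves than the Tet2-KO libraries did.

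IAPEy-int was at 314, 487 and 1222 CPM in WT and 646, 1581 and 798 CPM in Tet2 KO, IAPEY3-int at 438, 574 and 460 against 122, 170 and 782, and IAPEY4_LTR at 647, 1252 and 198 against 523, 1022 and 406. Their groups overlapped, with edgeR adjusted p from 0.647 to 0.948. IAP-d-int was at 48.8, 42.4 and 486 CPM in WT and at 1342, 612 and 526 CPM in Tet2 KO (log2 difference 2.10 ± 1.00 SE, edgeR adjusted p = 0.330). The third WT library was far above the other two and close to the lowest Tet2-KO library, and without it the log2 difference was 4.15 (edgeR adjusted p = 0.0489). The 15 subfamilies of lower count together held 2.24% to 4.85% of the IAP counts, and 7 of them lay above 0.

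Internal parts were compared with LTRs inside each library, which removes depth and scaling. For every LTR count there were 2.97, 1.87 and 1.98 internal counts in WT and 1.82, 1.62 and 1.64 in Tet2 KO. The Tet2-KO libraries all lay below the WT libraries, and the mean log2 ratio was 1.15 ± 0.364 in WT and 0.76 ± 0.0901 in Tet2 KO (SD, n = 3; difference −0.40, exact permutation test, two-sided, p = 0.1, the smallest possible). The first WT library stood apart, and without it the difference was −0.19. With IAPEz-int over IAPLTR1_Mm, IAPLTR1a_Mm and IAPLTR2_Mm alone the difference was −0.54. Without LTR-named elements over 1000 bp it was −0.42. LTRs held 1.49%, 2.31% and 2.01% of all repeat counts in WT and 2.20%, 2.34% and 2.45% in Tet2 KO. Internal parts held 4.44%, 4.32% and 3.98% against 3.99%, 3.79% and 4.02%. In both the groups overlapped. Internal parts other than IAPEz-int ran the other way as a sum, with 0.0992%, 0.142% and 0.209% in WT and 0.253%, 0.297% and 0.290% in Tet2 KO (log2 ratio 0.90, no overlap), so that the lower internal share came from IAPEz-int. Of this sum, IAP-d-int alone held 0.00471%, 0.00404% and 0.0436% in WT and 0.139%, 0.0647% and 0.0575% in Tet2 KO. The lack of overlap is therefore not a trait of all these internal parts.

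**Figure D1:**
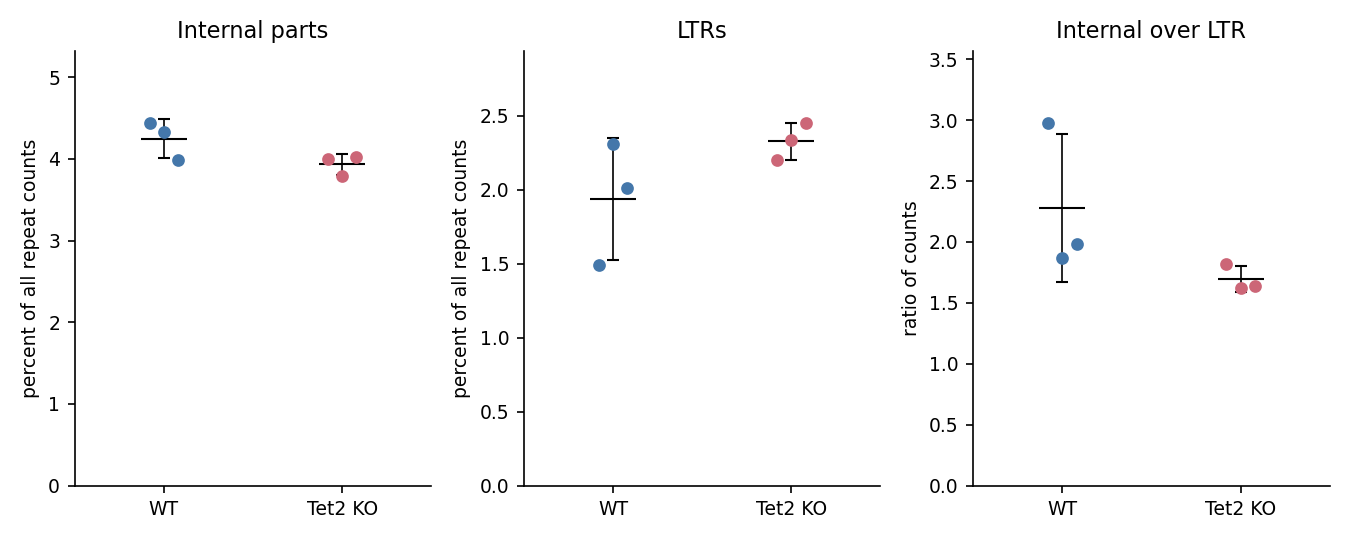
Share of IAP internal parts (left) and IAP LTRs (middle) in all repeat counts, in percent, and the ratio of internal to LTR counts (right), with 1 point per library, the mean as a dash and the SD as bars (n = 3). The ratio lies between 1.62 and 1.82 in Tet2 KO and between 1.87 and 2.97 in WT.

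Per length, IAPLTR1_Mm gave more counts than IAPEz-int. IAPLTR1_Mm elements, 546 kb in all, had 10.6, 13.9 and 12.3 CPM per kb (of all repeat counts) in WT and 19.3, 17.2 and 18.2 in Tet2 KO. IAPEz-int elements, 12276 kb in all, had 3.53, 3.41 and 3.07 against 3.05, 2.84 and 3.04. The level of IAPLTR1_Mm per kb was thus the higher of the pair in every library, and the gap between them was wider in every Tet2-KO library. Not all LTRs lay above IAPEz-int, and IAPLTR2b had 0.741 to 1.30 CPM per kb in WT. IAPLTR1_Mm was also richer in CpG, with a median of 54.3 CpG per kb against 20.4 in IAPEz-int, and in GC, with a median of 51.2% against 45.5%. The part of these features in the difference was not tested.

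IAPEz-int elements were then divided by structure. Of 3004 elements 772 had both ends and no gap over 200 bases, 229 had the common deletion, 1446 had other deletions and 557 lacked an end. This division, like those by flanking LTR, guide site and LTR position below, was made after the values had been seen and is given as a description without a test. The undeleted elements had a median length of 6426 bp and the common-deletion form of 4538 bp. A copy of IAPLTR1_Mm lay at the 5′ end of 225 of the 229 elements of the common-deletion form and of 315 of the 772 undeleted ones.

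The common-deletion form was the most abundant class per length and differed most between the genotypes. It held 0.813%, 0.730% and 0.929% of all repeat counts in WT and 0.609%, 0.505% and 0.382% in Tet2 KO, which is 7.92 CPM per kb in WT and 4.79 in Tet2 KO on average. Every Tet2-KO library lay below every WT library (log2 ratio of the means −0.72). Undeleted elements held 1.92%, 1.99% and 1.52% in WT and 1.63%, 1.56% and 1.81% in Tet2 KO, with overlapping groups and a log2 ratio of −0.12. Elements with other deletions held 1.28%, 1.11% and 1.06% against 1.19%, 1.15% and 1.17%.

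Within IAPEz-int counts alone, the common-deletion form made up 18.8%, 17.5% and 24.6% in WT and 16.3%, 14.5% and 10.2% in Tet2 KO. The groups did not overlap, and the gap between the lowest WT and the highest Tet2-KO library was small. The third WT library was the highest and the third Tet2-KO library the lowest, and the log2 ratio was −0.57 over all libraries, −0.41 without that WT library and −0.40 without that Tet2-KO library. Set directly against undeleted elements, the counts of the common-deletion form had a ratio of 0.423, 0.367 and 0.609 in WT and 0.374, 0.324 and 0.210 in Tet2 KO, and here the groups overlapped.

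The difference in the common-deletion form was also seen in the sum over its less abundant copies, though copies of this form may share reads. The 10 elements of highest mean count, a ranking in which the deeper WT libraries weigh most and which therefore favours copies high in WT, held 0.138%, 0.116% and 0.302% of all repeat counts in WT and 0.0559%, 0.0435% and 0.0113% in Tet2 KO. The other 219 held 0.675%, 0.614% and 0.627% in WT and 0.553%, 0.462% and 0.370% in Tet2 KO, still without overlap. Tested one by one with edgeR, 227 of the 229 elements passed the filter on low counts and 149 of them had a log2 difference below 0, with a median of −0.30, where the median was 0.16 over 731 undeleted elements and 0.03 over all 19030 elements tested. In 41 of the 227 (18.1%) all Tet2-KO libraries lay below all WT libraries and in 5 (2.20%) above, against 12.6% and 15.1% of all elements. These counts cover only elements that passed the filter and none of these elements passed the adjusted test. As copies may share reads, the elements are not separate observations and their number is no separate support.

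Grouped by the LTR at its 5′ end, IAPEz-int differed between flanks. Elements with a 5′ IAPLTR1_Mm, 712 in number, held 2.12%, 2.03% and 1.99% of all repeat counts in WT and 1.65%, 1.51% and 1.32% in Tet2 KO (log2 ratio −0.46, no overlap). The 853 elements with a 5′ IAPLTR1a_Mm held 1.56%, 1.62% and 1.25% against 1.39%, 1.31% and 1.66% (log2 ratio −0.03, overlapping). The 1191 elements with a 5′ LTR of the IAPLTR2 group held 0.611%, 0.478% and 0.499% in WT and 0.682%, 0.658% and 0.713% in Tet2 KO (log2 ratio 0.37, no overlap). The 225 elements with no LTR at their 5′ end held 0.0393%, 0.0446% and 0.0377% against 0.0212%, 0.0161% and 0.0323% (log2 ratio −0.80, no overlap). The counts thus ran lower in Tet2 KO behind IAPLTR1_Mm and without a 5′ LTR, and higher behind the IAPLTR2 group as a sum. Within that group only the 438 elements behind IAPLTR2a2_Mm separated the genotypes (log2 ratio 0.54). Behind IAPLTR2_Mm, IAPLTR2a and IAPLTR2b the log2 ratios were 0.22, 0.48 and 0.24, with overlap in each.

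Part of the IAPLTR1_Mm value came from the common-deletion form that it flanks. Behind the same 5′ IAPLTR1_Mm, the 225 elements of the common-deletion form had a log2 ratio of −0.75 and the 315 undeleted elements held 0.965%, 0.970% and 0.755% in WT and 0.769%, 0.786% and 0.737% in Tet2 KO, a log2 ratio of −0.23 with overlap. Behind IAPLTR1a_Mm the 394 undeleted elements had a log2 ratio of −0.05.

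Counts assigned to the LTRs next to those internal parts did not follow them. IAPLTR1_Mm elements at the 5′ side of an internal part held 0.276%, 0.370% and 0.299% of all repeat counts in WT and 0.497%, 0.412% and 0.486% in Tet2 KO. Those at the 3′ side held 0.298%, 0.378% and 0.359% against 0.538%, 0.518% and 0.491%. In both positions all Tet2-KO libraries lay above all WT libraries, with log2 ratios of 0.56 and 0.58. Reads from near-identical LTRs may be shared between the positions, so that these are not separate observations. LTRs of any subfamily beside the common-deletion form held 0.211%, 0.217% and 0.284% in WT and 0.399%, 0.293% and 0.423% in Tet2 KO (log2 ratio 0.65), so that over this class internal counts were lower and LTR counts higher. Beside undeleted elements LTRs held 0.411%, 0.628% and 0.540% against 0.604%, 0.742% and 0.730%, with overlap.

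LTRs next to an internal part made up most IAP LTR counts in both genotypes. An LTR within 100 bp of an internal part on the same strand took 82.9%, 82.1% and 84.8% of LTR counts in WT and 87.4%, 82.7% and 85.4% in Tet2 KO (83.3% ± 1.36 against 85.2% ± 2.38, SD, n = 3; exact permutation test, two-sided, p = 0.3). The groups overlapped, and 5792 LTRs with no internal part beside them held the rest. Long internal parts likewise held nearly all IAPEz-int counts: elements of at least 3000 bp took 95.4%, 97.3% and 95.3% in WT and 93.2%, 94.0% and 93.3% in Tet2 KO (exact permutation test, two-sided, p = 0.1, the smallest possible), without overlap. At a limit of 5000 bp the log2 ratio was 0.06 in place of −0.04. The 769 elements between 1000 and 3000 bp held 0.187%, 0.105% and 0.173% of all repeat counts in WT and 0.248%, 0.206% and 0.248% in Tet2 KO.

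Elements with the exact target window held most IAPEz-int counts. Their share of IAPEz-int counts was 79.9%, 81.2% and 76.0% in WT and 74.4%, 76.2% and 72.3% in Tet2 KO (79.0% ± 2.69 against 74.3% ± 1.96, SD, n = 3; exact permutation test, two-sided, p = 0.2). Only the third WT library reached into the Tet2-KO range. With up to 2 differences allowed, the log2 ratio of the shares was −0.01 in place of −0.09.

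As shares of all repeat counts, the window forms differed between the genotypes in opposite directions. Exact-target elements held 3.47%, 3.39% and 2.87% of all repeat counts in WT and 2.78%, 2.66% and 2.70% in Tet2 KO, and the 609 elements with G12A and A22G held 0.258%, 0.143% and 0.214% against 0.317%, 0.287% and 0.415%. Neither pair of groups overlapped (log2 ratios −0.26 and 0.73). With TMM factors of single elements in place of library totals, Tet2-KO values would be 0.25 higher on the log2 scale. The direction for the exact target thus rests on the scaling. The forms followed the flank: 591 exact-target elements had a 5′ IAPLTR1_Mm and 651 a 5′ IAPLTR1a_Mm, whereas 7 and 82 of the elements with G12A and A22G did. Among exact-target elements, the 164 with the common deletion had a log2 ratio of −0.72 and the other 1290 one of −0.17 with overlap. The 65 common-deletion elements without the exact target had −0.73, so that inside this form the log2 ratio was nearly equal with and without the exact target. Copies of this form may share reads, and the part of the window in the difference was not tested.

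The guide site differed between the structural classes. A perfect guide site was present in 550 of 772 undeleted elements and in 4 of the 229 elements of the common-deletion form, although 164 of these 229 carried the exact target window. The common-deletion form carried the sites with 2 differences instead: G22A and G23A in 97 elements, A7G and G23A in 65 and C5T and G23A in 37. The 1349 elements assigned the perfect site held 2.48%, 2.34% and 1.92% of all repeat counts in WT and 2.14%, 1.96% and 2.30% in Tet2 KO, with overlap. The 120 elements with G22A and G23A held 0.521%, 0.412% and 0.668% against 0.357%, 0.255% and 0.254%, with all Tet2-KO libraries below all WT libraries. The other forms with 2 differences were not limited to the common deletion. Undeleted elements were 61 of the 148 with A7G and G23A and 47 of the 96 with C5T and G23A. Over all carriers the groups overlapped. The shares were 0.451%, 0.558% and 0.361% against 0.358%, 0.404% and 0.272% for A7G and G23A. For C5T and G23A they were 0.345%, 0.391% and 0.226% against 0.279%, 0.294% and 0.242%. The 724 elements with A7G alone held 0.276%, 0.181% and 0.245% in WT and 0.384%, 0.356% and 0.427% in Tet2 KO, all above WT.

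Primer pairs for RT–qPCR of IAP RNA also met the forms unequally. The pair for amplicon 3, shown because it lies inside the deleted stretch at bases 1543 to 1948 of the undeleted element, had exact sites in 621 of 772 undeleted elements and in 0 of 229 of the common-deletion form.
amplicon 3 forward: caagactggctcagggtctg
amplicon 3 reverse: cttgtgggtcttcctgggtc
The pair for amplicon 4, at bases 5314 to 5402, had exact sites in 629 undeleted elements and 201 of the common-deletion form. The general pair named mIAP had them in 417 undeleted elements and in 21 of the common-deletion form. These are exact matches only, and primers may also bind sites with a mismatch.

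The 5 IAP elements with the highest mean count over all libraries, a ranking that also favours copies high in WT, were all of the common-deletion form with the exact target window, a copy of IAPLTR1_Mm on both sides and lengths of 4513 to 4538 bp. Aligned with each other they were 98.5% to 99.3% identical, and the first has an identical sequence in 1 other IAP element, so that its reads cannot be placed. The first lay in an intron of Mbnl1, an RNA-binding splicing regulator, on the opposite strand (chr3:60490212-60494749) and had 528, 463 and 1926 counts in WT and 154, 75.1 and 6.80 in Tet2 KO. Its log2 difference was −2.52 ± 1.01 SE (edgeR adjusted p = 0.221).

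The other 4 copies were likewise lower in Tet2 KO. An element 8863 bp from P4ha1, which encodes a subunit of collagen prolyl 4-hydroxylase (chr10:59382167-59386688), had 317, 479 and 982 counts in WT and 116, 72.4 and 52.5 in Tet2 KO (log2 difference −1.80 ± 0.44 SE, edgeR adjusted p = 0.106). An element in an intron of Gpsm1, a regulator of G-protein signalling, on the opposite strand (chr2:26333593-26338105), had 244, 409 and 984 against 146, 88.2 and 21.5. The intergenic copies at chr13:97848418-97852940 and chr15:39173391-39177903 had 267, 414 and 1150.1 against 110, 69.5 and 20.7, and 238, 460 and 1315 against 159, 93.9 and 11.2. In all 5 the third WT library was the highest and the third Tet2-KO library the lowest, and after scaling the groups overlapped only for the copy on chromosome 15. The IAPLTR1_Mm elements beside these 5 copies had at most 1.25 counts in any Tet2-KO library, and in WT they reached 269 counts at the copy on chromosome 3 and 81.5 at the copy on chromosome 15.

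At the level of single elements 2133 IAP elements were tested among 19030, and 1 passed the adjusted edgeR test, where 9 elements (0.0473%) passed in all. At an unadjusted p under 0.05 there were 138 IAP elements (6.47%) higher in Tet2 KO and 99 (4.64%) lower, against 13.1% and 7.92% of all elements tested. The IAP shares were thus the smaller in both directions. The called element was an IAPEy-int element of 3765 bp between IAPEY_LTR copies at chr10:54887128-54890892, 166301 bp from the nearest annotated gene, with 1.67, 4.33 and 5.40 counts in WT and 125, 269 and 229 in Tet2 KO. The log2 difference was 6.10 ± 0.50 SE (edgeR adjusted p = 0.0257). The element passed the filter on low counts only through the Tet2-KO libraries. It rose from 0.149% to 0.294% of the IAPEy-int counts of a WT library to 10.5% to 13.1% in Tet2 KO. Its own LTRs had at most 1 count in any library. No other IAP element was identical to it, and with any 1 library left out its adjusted p was between 0.104 and 0.246.

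The other elements with the smallest unadjusted p and no overlap did not pass the adjusted edgeR test. They were picked for the lack of overlap, and each was near 0 in 1 genotype. Each passed the filter on low counts only through the genotype where it was high, so its p-value is no separate support. Higher in Tet2 KO were 2 IAP-d-int elements of equal length on chromosome 12, at chr12:23576782-23579360 with 0, 0 and 1.42 counts in WT and 407, 339 and 61.2 in Tet2 KO, and at chr12:22417749-22420327 with 0, 0 and 1.92 against 362, 314 and 60.2 (edgeR adjusted p = 0.0773 and 0.0782). They were 99.9% identical, so that reads cannot be divided between them, and together they made up 32.1%, 65.9% and 10.6% of IAP-d-int counts in the Tet2-KO libraries. The remaining 777 IAP-d-int elements were at 47.1, 40.4 and 435 CPM (of all repeat counts) in WT and at 945, 221 and 514 in Tet2 KO, where the groups overlapped.

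Lower in Tet2 KO were both LTRs of 1 IAP copy on chromosome 10, an identical pair between which reads cannot be divided. These IAPLTR1a_Mm elements, identical over 337 bp, had 60.3, 102 and 80.6 counts in WT and 0.45, 0.50 and 0 in Tet2 KO (chr10:124680463-124680799), and 45.4, 128 and 46.5 against 0.33, 0.53 and 1.00 (chr10:124685710-124686046). Their adjusted p was 0.0782 and 0.101 by edgeR. The IAPEz-int element between them had 19.8, 18.8 and 40.2 counts in WT and 10.1, 6.80 and 10.8 in Tet2 KO. An IAPLTR2a2_Mm element at chr5:6227964-6228348 had 10.8, 33.1 and 27.8 counts in WT and 0 in each Tet2-KO library, which is at least 3.82-fold lower when each 0 is set to the limit of 3 counts per library (edgeR adjusted p = 0.101). Whether these insertions are present in both lines was not tested.

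IAPEz-int counts were also divided by position relative to genes. Of 3004 elements 2213 were intergenic by GENCODE M21, 516 lay in introns on the opposite strand, 178 in introns on the same strand and 78 overlapped an exon. Intergenic elements held 3.02%, 2.87% and 2.60% of all repeat counts in WT and 2.65%, 2.56% and 2.67% in Tet2 KO. Intronic elements on the opposite strand held 0.827%, 0.773% and 0.742% against 0.728%, 0.580% and 0.661%, and those on the same strand 0.293%, 0.311% and 0.260% against 0.217%, 0.211% and 0.241%. Elements that overlapped an exon held 0.179%, 0.195% and 0.164% in WT and 0.134%, 0.130% and 0.139% in Tet2 KO. The intronic and exonic groups did not overlap (log2 ratios −0.25 on the opposite strand, −0.37 on the same strand and −0.42 for exons) and the intergenic groups did (−0.11). These shares use library totals alone. TMM factors of single elements set Tet2-KO values 0.25 higher on the log2 scale. The directions on the opposite strand and between genes thus rest on the scaling. The common-deletion form was lower in all Tet2-KO libraries both between genes (142 elements, log2 ratio −0.67) and in introns on the opposite strand (53 elements, −0.86).

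Against the ERVK groups most like it, IAP gave fewer counts in Tet2 KO relative to ETn and MusD, a family of early transposons and their relatives. The ratio of IAP to ETn and MusD counts was 4.24, 5.43 and 3.72 in WT and 3.74, 3.09 and 3.15 in Tet2 KO, with 1 Tet2-KO library just inside the WT range (difference of mean log2 ratios −0.41, exact permutation test, two-sided, p = 0.2). The ratio to RLTR10 and MMERVK10 counts was 4.26, 5.34 and 5.28 against 4.80, 4.33 and 3.31 (difference −0.27, p = 0.3 in the same exact test). The 3770 ETn and MusD elements themselves held 1.40%, 1.22% and 1.61% of all repeat counts in WT and 1.65%, 1.98% and 2.06% in Tet2 KO. As a share of ERVK counts alone IAP was lower in Tet2 KO (log2 ratio −0.14, exact permutation test p = 0.1, the smallest possible), whereas its share of all repeat counts was level.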

How the data were processed

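Per the labels, caRNA was immunoprecipitated with an anti-m5C antibody and sequenced after SMARTer Stranded Pico v2 library construction. After trimming (Trimmomatic 0.39), the authors mapped reads to mm10 by HISAT2 2.1.0 and dropped duplicates by Picard. featureCounts then assigned reads to the elements of a One-code-to-find-them-all annotation. The deposited values are estimated counts per element, fractional and not normalized by the authors. The options that made them fractional, and the handling of reads that map to several copies, are not given in the sources used here. Both decide how reads are shared between near-identical IAP copies. Input and spike-in counts were not analysed here. All 6 mES cell columns were used, and the K-562 table was not used here. The table holds repeats only, so loss of Tet2 RNA was not checked.

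Estimated counts were summed per subfamily and rounded. Tet2 KO was compared with WT on all subfamilies, or all elements, of the DNA, LINE, LTR and SINE classes with the edgeR 4.0.16 quasi-likelihood test (filterByExpr, TMM, prior count 2, two-sided, Benjamini–Hochberg over all features tested, called under 0.05) in R 4.3.3, with DESeq2 1.42.0 as an alternative. SE is the absolute log2 difference over the square root of F. Shares and ratios were compared by exact permutation over 20 assignments of libraries, whose smallest p is 0.1. mm10 sequence was read from GRCm38.p6, in which no element passed the end of any of 21 chromosomes. It was read for 19124 IAP elements. Gaps over 200 bases were found with BLAST 2.17.0 against 1 undeleted element, and an end counts as complete within 20 bases of the consensus. Genes are those of GENCODE M21. Named are called subfamilies and those averaging 1000 counts or more, and, of single elements, those called, the 5 of highest mean count and, in each direction, the 3 of smallest p whose groups did not overlap. Members, lists and tests were chosen with earlier results of these data known.

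On simulated counts with 2-, 4- and 16-fold changes, 4.35%, 37.5% and 100% of changed subfamilies were found among 531, and 1.54%, 7.41% and 71.4% of changed elements among 18117. Alternatives were other scalings, filters, classes and tests, removal of the 10 highest elements, a replicate block and leaving out each library. Replicate numbers did not pair the libraries: deviations of equally numbered libraries from their group means had correlations of −0.093, −0.036 and −0.046 over 547 subfamilies.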

Additional observations from a re-analysis of the deposited data

How the results depend on the processing

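Depth and scaling set the main limits. Shares of all repeat counts use library totals alone, and TMM factors of single elements would set Tet2 KO 0.25 higher on the log2 scale. Without spike-in counts, directions between genotypes are relative to other repeats, and at single elements edgeR found few of the simulated 2- and 4-fold changes. Called IAP subfamilies numbered 0 with the main settings, 3 with the DESeq2 Wald test, 1 at a filter of 10 counts in all (IAPEz-int) and 1 with TMM factors of single elements (IAPLTR1_Mm), a scaling added after seeing the data. Leaving out 1 library gave 0 to 1 (IAP-d-int without the third WT library). Called IAP elements numbered 1 with the main settings and 124 of 2133 with DESeq2 (75 higher, 49 lower in Tet2 KO). The share of all elements that DESeq2 called is not given here, so its count says nothing particular to IAP. Called IAP elements numbered 0 at a filter of 10 counts in all, 0 with the replicate block and 0 whichever library was left out. The cause of these shifts was not tested.

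The IAP share of all repeat counts had a log2 ratio of 0.02, which reversed to −0.14 as a share of ERVK counts. Leaving out 1 library moved it between −0.012 and 0.071. The share of elements over the length limit reversed to 0.056 at 5000 bp. The share of undeleted elements (log2 ratio 0.05) ran from −0.0093 to 0.11 with 1 library left out, and that of the common-deletion form from −0.72 to −0.40, and −0.36 without its 10 highest elements.

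With the replicate block the internal-to-LTR difference was −0.40 (exact p = 0.25, the smallest that 3 pairs allow), the IAP share had a log2 ratio of 0.02, the exact-target share −0.09 and the common-deletion share −0.58. No IAP subfamily was called with the block. Replicates share only a number.

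Single values reversed as follows. IAPEz-int was at 0.091, IAPEY3-int at 0.019, IAPEY4_LTR at 0.32 and IAPLTR1a_Mm at 0.29 with TMM factors of single elements. With library totals alone IAPEY4_LTR was at 0.050 and IAPLTR1a_Mm at 0.042. IAPEY4_LTR was at 0.14 with the replicate block, and between −0.58 and 0.61 with 1 library left out. Of the other alternatives, 274 values for named subfamilies and elements kept their direction and their side of the threshold. Another 10 passed the threshold though the main setting did not, and 8 no longer passed it. Shares and ratios could not pass 0.05 under any setting, since their smallest p was 0.1, and leaving out the 10 repeat elements of highest count removed no IAP element and left ratios within IAP as they were.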
